A study of Mus musculus with 6 samples.

Results

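The genes described here are 37 genes of the centromere, the kinetochore, the spindle checkpoint and the chromosomal passenger complex. They were chosen by name, with no measured value in the rule, from a table of 24043 gene rows. The choice was made with earlier results of these data known. All 37 were found in the table, and all 37 were tested, as were 11573 genes in total whose mean over the 6 libraries reached 1 FPKM. FPKM is the number of sequenced fragments of a gene scaled by the length of the gene and the size of the library. RNA-seq was run on mouse embryonic stem (ES) cells, which are pluripotent cells taken from the early embryo. The control group was 3 libraries of wild-type cells. The other group was 3 libraries labelled Q-KO, whose genotype label gives the cells as having no G1 cyclin. Both groups were grown in Knockout DMEM with the MEK inhibitor PD184352, the GSK3 inhibitor CHIR99021 and leukaemia inhibitory factor. The labels do not give the strain, the alleles, the way the genes were removed or the number of clones. Nor do they state separate cultures for the libraries of a group, so the p-values rest on a spread between samples that may be technical.

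The kinetochore is the protein structure built on centromeric chromatin that ties each chromosome to spindle microtubules. Its base is a nucleosome with the histone variant CENP-A, an inner layer of CENP proteins sits on it, and an outer layer made of KNL1, the Mis12 complex and the Ndc80 complex holds the microtubule. The spindle checkpoint reads unattached kinetochores and delays anaphase, shugoshins guard cohesion at the centromere, and the chromosomal passenger complex, with the kinase Aurora B, corrects wrong attachments. Many of these genes are transcribed mainly in late S, G2 and M phase. In cultured cells their promoters are known to be held silent in G1 by the DREAM complex and later activated by B-MYB and FOXM1, and G1 cyclins with their kinases act upstream by phosphorylating the retinoblastoma family of proteins. Mouse ES cells cycle fast, with a short G1 phase.

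The libraries had sums of 525134 to 641715 FPKM, and their relative depth, read from the low values, was 1.1 to 1.22 times that of wild-type replicate 1. Of the 5 G1 cyclin genes, Ccnd1, Ccnd3 and Ccne2 fell. Ccnd2 was under 1 FPKM in every library, and Ccne1 was at 55.9, 53.9 and 37.5 FPKM in wild-type libraries and higher, at 65.3, 73.5 and 87.3 FPKM, in each Q-KO-labelled library, with limma's adjusted p = 0.113. Ccne1 thus runs against the genotype label, so each direction given here belongs to libraries by their Q-KO label. A gene-level FPKM includes exons outside a deleted part, so these values do not show which alleles were deleted. The 6 ES cell marker genes examined (Pou5f1, Sox2, Nanog, Klf4, Esrrb and Zfp42) summed to 1561 to 1712 FPKM across wild-type and to 1631 to 1860 FPKM across Q-KO-labelled libraries, and 0 of the 6 passed the test. Zfp42 was uneven within the groups, at 76.6, 78.9 and 363.5 FPKM in wild-type and at 176.5, 75.4 and 74.7 FPKM in Q-KO-labelled libraries. The 8 fibroblast feeder markers summed to 1.61 to 2.99 FPKM and 0.956 to 6.49 FPKM, highest in Q-KO replicate 1, with Dcn and Fap listed at 0 in all wild-type libraries. Those of primitive endoderm summed to 1.13 to 2.13 and 1.54 to 1.70 FPKM, and those of trophectoderm to 4.37 to 10.7 and 8.79 to 10.8 FPKM. Of the trophectoderm markers, Eomes rose (limma adjusted p = 0.00398). The part of these other cell types in the results was not tested. Wild-type replicate 3 differed from its group. The 5 Y-linked genes examined were listed at 0 in wild-type replicates 1 and 2, and summed to 101 FPKM in replicate 3 and to 43.8 to 72.3 FPKM in Q-KO-labelled libraries. In replicate 3 the genes of chromosomes 8 and 11 were higher than in the other wild-type libraries, by a median of 0.27 on the log2 scale above the median of all genes on each of those chromosomes.

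Most of the checkpoint, corona and shugoshin genes had lower values in every library labelled Q-KO, while most inner kinetochore genes overlapped between the groups. Such overlap was also the commonest outcome over all genes, in 8372 of 11573 tested. The roles were not tested against one another. Of the 37 genes, 4 fell and 0 rose: Sgol2, a shugoshin, Aurkb, the gene of Aurora B, Ttk, the checkpoint kinase MPS1, and Cenpf, a large protein of the outer corona. That is 10.8% of the genes, where 4.06% of all genes tested passed, 1.02% lower and 3.04% higher (limma on log2(FPKM + 1), Benjamini-Hochberg adjusted p under 0.05). The log2 change, Q-KO minus wild-type, was below 0 for 28 of the 37, where it was below 0 for 40.7% of all genes. The unadjusted p was under 0.05 for 19 genes, all lower, beside 6.7% of all genes lower and 14.8% higher. For 19 genes every Q-KO-labelled library was below every wild-type library, and for 0 every one was above, where these shares were 9.44% and 18.2% over all genes. The median log2 change of the 37 was -0.33, and that of all genes tested was 0.07. Scaling moved these counts. With median-of-ratios scaling 8 of the 37 fell and with quantile normalization 7, and the share of rises among all calls went from 74.9% to 61.8% and 54.0%. Over all 11573 genes, 162 and 210 fell with these scalings, beside 118 in the main fit. The 4 calls were lost when wild-type replicate 1, Q-KO replicate 2 or Q-KO replicate 3 was left out (0 of the 37 in each). Calls also dropped over all 11573 genes, where 25, 3 and 24 fell in those fits, in that order. Only Cenpf and Sgol2 were kept without Q-KO replicate 1, where 44 of all genes fell. All 4 were kept without wild-type replicate 2, where 78 of all genes fell. Without wild-type replicate 3, 7 of the 37 and 154 of all genes fell. In these 6 fits the log2 changes of the 4 genes stayed between -1.37 and -0.72. In bulk RNA, fewer cells in mitosis and less RNA per cell cannot be told apart.

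**Figure D1:**
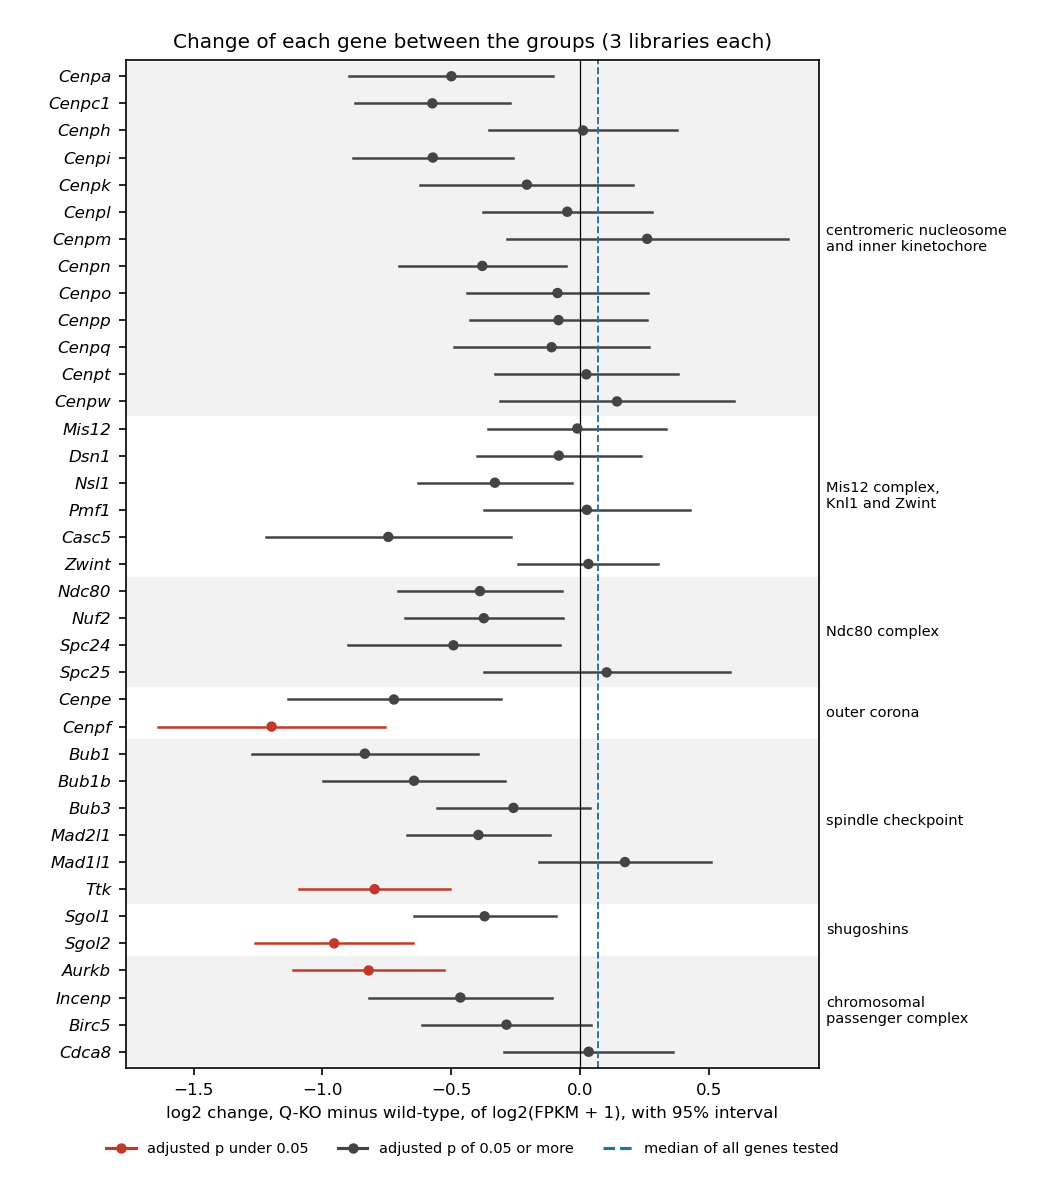
Log2 change (Q-KO minus wild-type, of log2(FPKM + 1)) of the 37 genes, in rows by role, with limma's 95% interval as a line. The dashed line marks the median of all genes tested, 0.07. Sgol2, Aurkb, Ttk and Cenpf, in red, passed the adjusted threshold, and the other 33 did not.

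Promoters of 4 genes are shown because they set side by side genes that differ in their change. Marked in them are 2 short motifs known from mitotic promoters. The CHR (cell cycle genes homology region, TTTGAA) is bound by the MuvB core of the DREAM complex, and the CCAAT box by NF-Y. Sequences are from RefSeq (build GRCm38.p6), on the strand of the gene, 180 bases each, of which 150 lie before the transcription start and 30 run from it. Capitals mark matches to TTTGAA or CCAAT on either strand. All 4 held CCAAT, and all but Bub1 held exact TTTGAA. Ttk and Cenpf fell, Bub1 was lower in every Q-KO-labelled library, and Cdca8 lay near its wild-type level. The windows are chr9:83834539-83834718 (plus strand) for Ttk, chr1:189688057-189688236 (minus strand) for Cenpf, chr2:127831830-127832009 (minus strand) for Bub1 and chr4:124936888-124937067 (minus strand) for Cdca8.
Ttk: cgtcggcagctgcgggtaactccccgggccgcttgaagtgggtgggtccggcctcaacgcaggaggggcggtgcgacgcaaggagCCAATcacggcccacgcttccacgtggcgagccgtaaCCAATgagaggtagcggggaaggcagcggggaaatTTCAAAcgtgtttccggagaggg
Cenpf: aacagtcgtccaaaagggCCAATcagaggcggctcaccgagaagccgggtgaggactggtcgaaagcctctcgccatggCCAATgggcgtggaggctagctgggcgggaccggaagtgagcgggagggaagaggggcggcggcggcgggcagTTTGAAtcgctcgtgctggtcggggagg
Bub1: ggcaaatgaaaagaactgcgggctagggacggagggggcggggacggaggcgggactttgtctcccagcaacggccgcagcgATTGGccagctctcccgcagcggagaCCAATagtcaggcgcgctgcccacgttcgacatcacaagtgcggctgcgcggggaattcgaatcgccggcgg
Cdca8: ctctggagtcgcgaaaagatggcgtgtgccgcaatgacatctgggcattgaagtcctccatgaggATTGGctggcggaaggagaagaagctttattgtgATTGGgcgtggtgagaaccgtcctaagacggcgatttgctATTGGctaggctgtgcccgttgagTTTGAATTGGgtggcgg

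Ttk held its CHR letters 7 bases after the start, counted to the first base of the match, and CCAAT 65 and 28 bases before it. Cenpf held them 2 bases after the start and 71 and 132 bases before it. Bub1 had CCAAT 68 and 42 bases before the start and no exact TTTGAA in this stretch. After the start it held ttcgaa, which differs from TTTGAA in a single letter and was not searched for. Only the exact letters TTTGAA were searched, in all genes, so a CHR with other letters would be missed. Cdca8, which did not pass the test, had TTTGAA 13 bases after the start, where it overlaps a reversed CCAAT at 18, and CCAAT at 85, 51 and 11 bases before it. Of the 37 genes, 33 had a promoter window in the RefSeq table, of 250 bases before to 50 after the start, and these had 38 windows. TTTGAA on either strand was present in 14 of the 38 windows (36.8%) and in 17.9% of all 32851 windows of that length. Within 50 bases of the start it was in 11 of the 38 (28.9%) and in 4.94% of all windows. CCAAT was in 27 of the 38 (71.1%) and in 37.4% of all windows. An E2F-like motif, TTTNNCGC on either strand, was in 7 of the 38 (18.4%) and in 5.17% of all windows. The 11 genes with TTTGAA within 50 bases of the start had a median log2 change of -0.39, with a range from -1.20 (Cenpf) to 0.14 (Cenpw), and 7 of them were lower in every Q-KO-labelled library. The 22 genes without it had a median of -0.10, and 8 of them were lower in every Q-KO-labelled library. Bub1 and Sgol2 belong to the second set, and Spc25 and Cdca8 to the first. With TTTGAA anywhere in the window the median was -0.38, and without it -0.16. For CCAAT these medians were -0.26 and -0.19. The E2F-like motif went the other way, at -0.14 with it and -0.37 without. These splits were not tested. A match is a description of the sequence only, and binding was not measured.

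**Figure D2:**
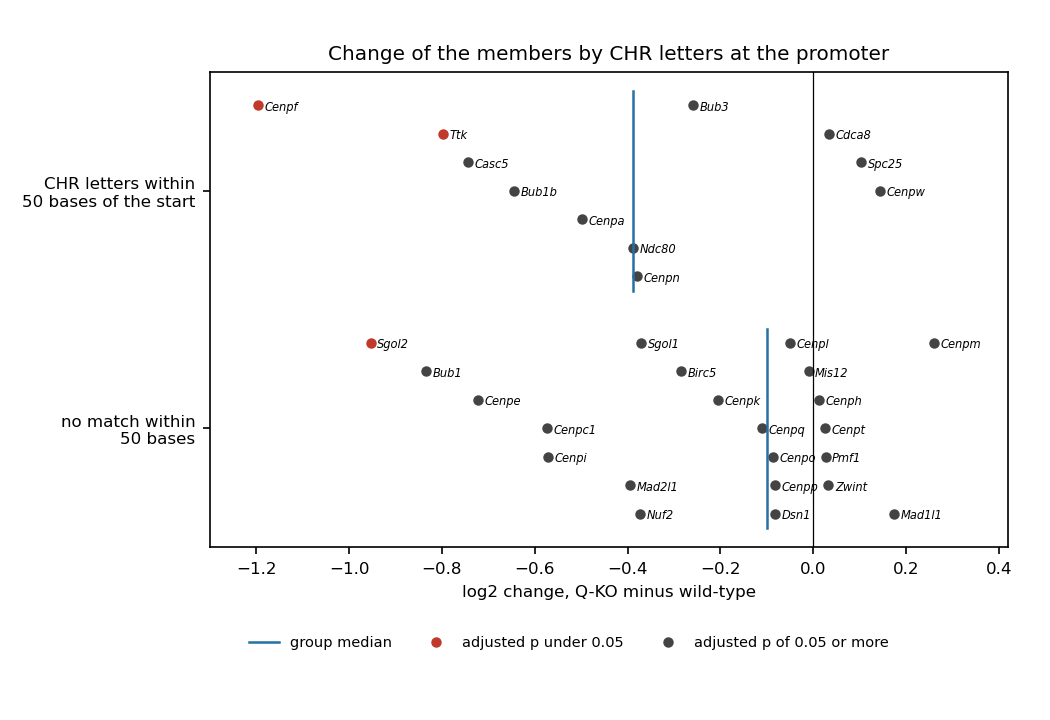
Log2 change (Q-KO minus wild-type) of the 33 genes with a RefSeq promoter window, as points, for those with TTTGAA on either strand within 50 bases of the transcription start (top) and those without (bottom). The blue lines are the medians, -0.39 and -0.10. Both sets span genes below -0.80 and above 0, and the vertical position within a set has no meaning.

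The outer corona genes encode large coiled-coil proteins of the face of the kinetochore that meets microtubules. Cenpf was at 17.4, 16.4 and 13.4 FPKM in the 3 wild-type libraries, in the order of their numbers, and at 8.27, 5.70 and 5.18 FPKM in those labelled Q-KO. Every Q-KO-labelled library was below every wild-type library, and the log2 change was -1.20 (SE 0.19, limma adjusted p = 0.0173), the furthest from 0 of the 37 genes. Cenpe, a kinesin motor that carries chromosomes to the spindle equator, was at 20.2, 19.3 and 14.96 FPKM in wild-type and at 12.7, 10.4 and 8.76 FPKM in Q-KO-labelled libraries. Its groups did not overlap either, but its log2 change of -0.72 (SE 0.18) missed the threshold (limma adjusted p = 0.0677).

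Of the 6 spindle checkpoint genes, 1 fell, and 5 were lower in every Q-KO-labelled library than in any wild-type library. These shares were 1.02% and 9.44% over all genes tested. Ttk, the kinase that starts checkpoint signalling at the kinetochore, was at 30, 33.7 and 27.7 FPKM in wild-type and at 17.02, 17.11 and 17.04 FPKM in Q-KO-labelled libraries. The Q-KO-labelled values were close together, with an SD of 0.047 FPKM (n = 3), and the log2 change of Ttk was -0.80 (SE 0.13, limma adjusted p = 0.0172). Bub1, a kinase that marks centromeric histone H2A and recruits shugoshin, was at 41.6, 61.8 and 37.6 FPKM in wild-type and at 25.7, 23.8 and 26.6 FPKM in Q-KO-labelled libraries. Wild-type replicate 2 was high among the wild-type libraries, the groups did not overlap, and the log2 change of -0.83 (SE 0.19) missed the threshold (limma adjusted p = 0.0537).

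Bub1b, the gene of BUBR1, a part of the mitotic checkpoint complex, was at 81.5, 70.2 and 58.6 FPKM in wild-type and at 44.9, 47.4 and 40.3 FPKM in Q-KO-labelled libraries (log2 change -0.64, limma adjusted p = 0.0611). Mad2l1, the gene of MAD2, which binds and holds back CDC20, was at 63.0, 67.5 and 74.3 FPKM and at 51.6, 50.6 and 52.6 FPKM (log2 change -0.39, limma adjusted p = 0.115). Bub3, the adaptor that docks BUB1 and BUBR1 on KNL1, was at 66.0, 53.5 and 59.7 FPKM and at 48.2, 48.2 and 52.5 FPKM. These 3 genes did not overlap between the groups, and Bub3 had the smallest change of them, -0.26 with a 95% interval from -0.55 to 0.04. Mad1l1, the gene of MAD1, which places MAD2 at the kinetochore, was the only checkpoint gene of the 6 with a log2 change above 0. It was at 14.8, 11.1 and 13.1 FPKM in wild-type and at 14.1, 15.0 and 15.1 FPKM in Q-KO-labelled libraries, and its interval ran from -0.16 to 0.51.

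Both shugoshin genes were lower in every Q-KO-labelled library, as were 9.44% of all genes tested. Sgol2, which protects centromeric cohesin and also brings the microtubule depolymerase MCAK to centromeres, was at 36.9, 40.0 and 31.6 FPKM in wild-type and at 18.5, 18.4 and 17.5 FPKM in Q-KO-labelled libraries. Its log2 change was -0.95 (SE 0.13), with the smallest adjusted p of the 37 (limma, 0.0121). Sgol1, the shugoshin that protects cohesion in mitosis, was at 24.8, 26.8 and 24.3 FPKM and at 18.6, 19.9 and 19.5 FPKM. Its change of -0.37 (SE 0.12) missed the threshold (limma adjusted p = 0.13).

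In the chromosomal passenger complex the kinase gene fell, and its 3 partners did not pass the test. Among all genes tested, 4.06% passed it and 1.02% fell. Aurkb was at 36.6, 37.4 and 31.8 FPKM in wild-type and at 19.6, 20.6 and 18.4 FPKM in Q-KO-labelled libraries, a log2 change of -0.82 (SE 0.13, limma adjusted p = 0.0155). Aurkb lies on chromosome 11, whose genes were higher in wild-type replicate 3. That library had the lowest wild-type value of Aurkb, and the log2 change without it was -0.89. Incenp, the scaffold that activates Aurora B, was at 40.6, 32.6 and 36.3 FPKM in wild-type and at 29.6, 27.2 and 22.1 FPKM in Q-KO-labelled libraries (log2 change -0.46, limma adjusted p = 0.136), with no overlap.

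Birc5, the gene of survivin, which reads the histone mark of centromeres, was the most abundant of the 37 genes. It was at 157, 131 and 144 FPKM in wild-type and at 109, 111 and 136 FPKM in Q-KO-labelled libraries, where replicate 3 reached into the wild-type range (log2 change -0.28, limma adjusted p = 0.296). Cdca8, the gene of borealin, which joins survivin to INCENP, was at 74.2, 64.7 and 54.5 FPKM and at 64.1, 67.4 and 65.2 FPKM. Its Q-KO-labelled values lay inside the wild-type range, and the 95% interval of its log2 change ran from -0.29 to 0.36. The sign of the change of Cdca8, 0.03, flipped with median-of-ratios scaling and quantile normalization.

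**Figure D3:**
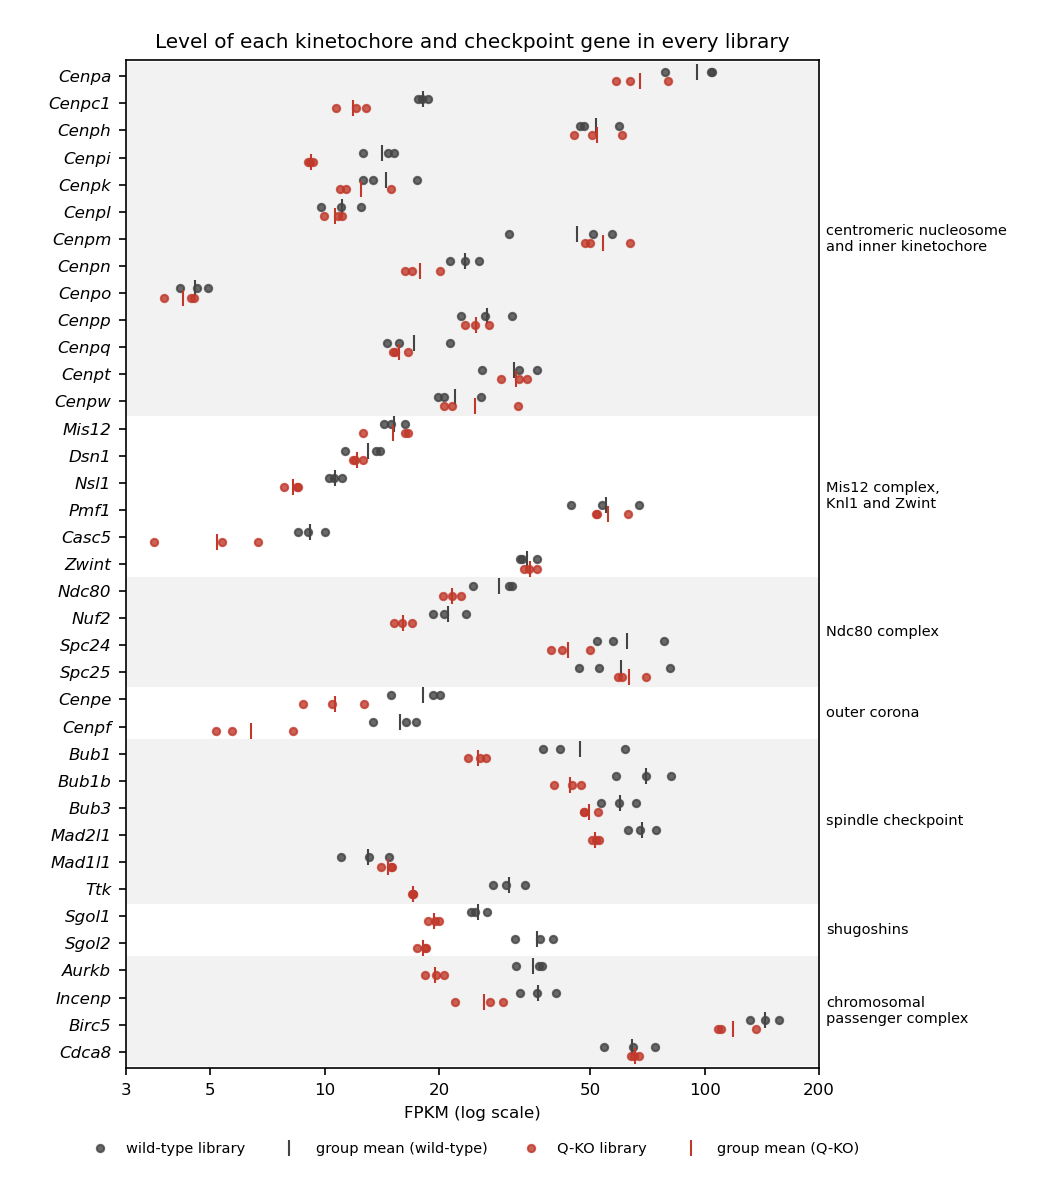
FPKM (log axis) of the 37 genes in each of the 6 libraries, as points, grouped by role, with the mean of each group as a vertical bar. The 5 checkpoint genes other than Mad1l1, both shugoshin genes and both corona genes have the Q-KO-labelled libraries to the left of all wild-type libraries, while 10 of the 13 genes of the inner kinetochore overlap. Over all genes tested, 8372 of 11573 overlap.

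The Ndc80 complex is the 4-protein rod that binds the microtubule. Ndc80 and Nuf2, which form its microtubule-binding head, were similar to each other in level and in change. Ndc80 was at 30.5, 31.1 and 24.6 FPKM in wild-type and at 22.8, 20.5 and 21.6 FPKM in Q-KO-labelled libraries (log2 change -0.39, limma adjusted p = 0.161). Nuf2 was at 20.6, 23.5 and 19.2 FPKM and at 15.99, 15.2 and 16.95 FPKM (log2 change -0.37, limma adjusted p = 0.16). For both, the groups did not overlap and the threshold was not reached.

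Spc24 and Spc25 form the other end of the rod, which docks on the Mis12 complex, and their values differed in pattern. Spc24 was at 78.2, 57.4 and 52.2 FPKM in wild-type and at 39.4, 42.1 and 49.99 FPKM in Q-KO-labelled libraries (log2 change -0.49, limma adjusted p = 0.166). Spc25 was at 46.8, 81.3 and 52.8 FPKM and at 59.3, 60.5 and 70.0 FPKM. The wild-type libraries span all 3 Q-KO-labelled values of Spc25, with a log2 change of 0.10 and a 95% interval from -0.37 to 0.58, and without wild-type replicate 1 its sign turned (-0.05). In FPKM, a level per length, Spc24 and Spc25 were above Ndc80 and Nuf2 in each of the 6 libraries.

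Of the 6 genes of the Mis12 complex, KNL1 and ZWINT, 0 passed the test, where 4.06% of all genes tested passed. Casc5, the gene of KNL1, the scaffold on which BUB1 and BUBR1 assemble, was at 8.48, 10 and 9.04 FPKM in wild-type and at 6.67, 5.38 and 3.56 FPKM in Q-KO-labelled libraries. Its groups did not overlap and its log2 change was -0.74 (SE 0.21, limma adjusted p = 0.0919). Nsl1, a Mis12 complex subunit, was at 11.1, 10.2 and 10.6 FPKM and at 8.46, 8.52 and 7.80 FPKM (log2 change -0.33, limma adjusted p = 0.194), again with no overlap. Pmf1, the most abundant of the 6, was at 67.2, 53.6 and 44.4 FPKM and at 52.0, 51.8 and 62.8 FPKM, with Q-KO-labelled values inside the wild-type range. The log2 changes of Mis12, Dsn1, Pmf1 and Zwint lay between -0.08 and 0.03, with 95% intervals that reached from -0.40 to 0.43. Those of Pmf1 and Zwint turned below 0 with median-of-ratios scaling and quantile normalization.

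Of the 13 genes of the centromeric nucleosome and the inner kinetochore, 0 passed the test, 3 were lower in every Q-KO-labelled library and 10 overlapped, with a median log2 change of -0.09. Over all 11573 genes tested, 9.44% were lower in every Q-KO-labelled library and 8372 overlapped. Cenpa, the histone H3 variant that marks the centromere and the most abundant of the 13, was at 104, 104 and 78.9 FPKM in wild-type and at 58.4, 63.7 and 80.2 FPKM in Q-KO-labelled libraries. Wild-type replicate 3 and Q-KO replicate 3 met at about the same level, so the groups overlapped (log2 change -0.50, SE 0.17, limma adjusted p = 0.149). Cenpc1, the gene of CENP-C, which binds the CENP-A nucleosome and reaches out to the Mis12 complex, was at 17.99, 18.7 and 17.6 FPKM and at 12.1, 12.9 and 10.7 FPKM. Its wild-type SD was 0.572 FPKM (n = 3), the groups did not overlap, and the log2 change was -0.57 (SE 0.13, limma adjusted p = 0.054).

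Cenpi, a member of the CENP-H/I/K/M group of the inner kinetochore, was at 12.6, 14.7 and 15.3 FPKM in wild-type and at 9.17, 9.03 and 9.34 FPKM in Q-KO-labelled libraries (log2 change -0.57, limma adjusted p = 0.0601). Its partners did not share this pattern. Cenph was at 48.2, 47.1 and 59.7 FPKM and at 50.7, 45.2 and 60.8 FPKM, and Cenpm at 50.7, 57.1 and 30.5 FPKM and at 49.8, 48.4 and 63.8 FPKM, both with overlap. The low wild-type value of Cenpm was that of replicate 3, and without that library its log2 change of 0.26 became -0.01. Cenpk overlapped as well, with a log2 change of -0.21 and a 95% interval from -0.62 to 0.21.

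Cenpn, which reads CENP-A together with CENP-L, was at 23.3, 21.4 and 25.5 FPKM in wild-type and at 20.2, 16.3 and 16.95 FPKM in Q-KO-labelled libraries (log2 change -0.38, limma adjusted p = 0.173). Its gene lies on chromosome 8, and wild-type replicate 3 had its highest value. Without that library the change was -0.32. Cenpl, its partner, had a log2 change of -0.05 (95% interval from -0.38 to 0.28). The changes of Cenpo, Cenpp and Cenpq, which belong to one subcomplex, were -0.09, -0.08 and -0.11. Cenpo was the least abundant of the 37 genes, with a wild-type mean of 4.57 ± 0.39 FPKM and a Q-KO mean of 4.25 ± 0.41 FPKM (SD, n = 3). Cenpt and Cenpw, histone-fold proteins that bind centromeric DNA, had changes of 0.02 and 0.14, and the sign of Cenpt turned with median-of-ratios scaling and quantile normalization, as did that of Cenph. None of the intervals of these 8 overlapping genes (the 13 without Cenpa, Cenpc1, Cenpi, Cenpn and Cenpm) reached beyond -0.62 or 0.60. Cenpa and Cenpm, which also overlapped, had intervals that reached further, from -0.90 to -0.10 and from -0.28 to 0.81.

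The other genes of the kinetochore and centromere were read from a second list, of which 34 were tested. Of these, 2 fell and 0 rose, 13 were lower and 2 higher in every Q-KO-labelled library than in any wild-type library, and the median log2 change was -0.22. Over all genes tested, 1.02% fell and 3.04% rose, and 9.44% were lower and 18.2% higher in every Q-KO-labelled library. Ska1, a microtubule-tracking partner of the Ndc80 complex, was at 11.9, 10.9 and 8.42 FPKM in wild-type and at 4.73, 3.94 and 4.14 FPKM in Q-KO-labelled libraries, a log2 change of -1.10 (SE 0.17, limma adjusted p = 0.0153). This call was lost without wild-type replicate 1, Q-KO replicate 2 or Q-KO replicate 3, where 25, 3 and 24 of all genes fell. Cdc20, the activator of the anaphase-promoting complex that the checkpoint inhibits and the most abundant gene of the list, was at 113, 86.4 and 73.8 FPKM and at 62.8, 60.6 and 55.2 FPKM (log2 change -0.58, limma adjusted p = 0.103). The 2 genes that were higher in every Q-KO-labelled library, named after their values were seen, were Cenpb (log2 change 0.49, limma adjusted p = 0.13), which binds centromeric satellite DNA, and Zw10 (0.48, limma adjusted p = 0.0995), which brings dynein to the kinetochore.

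Genes of mitosis outside the kinetochore and genes of S phase were read beside these. Of 10 other mitotic genes, 4 fell (Top2a, Hmmr, Mki67 and Ccnb1), all 10 had a log2 change below 0, and the median was -0.48. Over all genes tested, 1.02% fell and 40.7% had a log2 change below 0. Of 10 S phase genes (the 6 of the MCM helicase, Pcna, Rrm1, Rrm2 and Tyms), 0 passed limma's test, also at an unadjusted p under 0.05, with a median of -0.05. Among all genes tested, 4.06% passed limma's adjusted threshold, and at the unadjusted one 6.7% were lower and 14.8% higher. The summed level of the 10 mitotic genes ranged over 801 to 939 FPKM among wild-type libraries and 559 to 585 FPKM among those labelled Q-KO. That of the S phase genes was 1316 to 1666 and 1392 to 1527 FPKM. The share of the kinetochore values that moves with the number of cells in mitosis was not tested.

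Across libraries, the median of the 37 genes relative to the wild-type mean of each gene was -0.30, -0.36 and -0.25 on the log2 scale in Q-KO-labelled replicates 1, 2 and 3, and 0.00, 0.06 and -0.12 in wild-type replicates 1, 2 and 3. The same median over all genes tested was 0.05, 0.11 and 0.07 in the Q-KO-labelled libraries. Wild-type replicate 3 had the lowest wild-type value for 20 of the 37 genes. Against that library alone, which carries Y-linked transcripts like the Q-KO-labelled libraries, 29 of the 37 genes had a change below 0 with a median of -0.25, and 0 passed limma's threshold, where 811 of 11573 genes did in that fit. This comparison, added with the data in view, takes its spread from the Q-KO-labelled libraries only and assumes that the lone wild-type library varies like them.

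The log2 change was lower for longer transcripts, both among the 37 genes and, weakly, among all genes, where the median change was above 0 in every length bin except the longest. Across the 37 genes Pearson's r between log2 change and log2 transcript length was -0.54 (Spearman's rho -0.47), and across 11493 tested genes with a length it was -0.12 (rho -0.13). These are correlations across genes of the same 6 libraries, and genes are not independent replicates. Cenpf, at 11130 bases, Cenpe, at 7910, and Casc5, at 7800, are the longest of the 37 and had changes of -1.20, -0.72 and -0.74. Mad2l1, next at 7557 bases, had a change of -0.39, while Aurkb, at 1950 bases, and Ttk, at 2871, fell by 0.82 and 0.80. These lengths are of the longest annotated transcript, which may not be the one expressed. After the trend with length over all genes was removed from each library, 9 of the 37 genes fell: Sgol2, Aurkb, Ttk, Cenpf, Cenpc1, Cenpi, Casc5, Bub1 and Bub1b, with a median over the 37 of -0.28. Calls also increased over all 11573 genes, where 212 fell and 480 rose, beside 118 and 352 in the main fit. That setting was chosen after the data were seen.

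**Figure D4:**
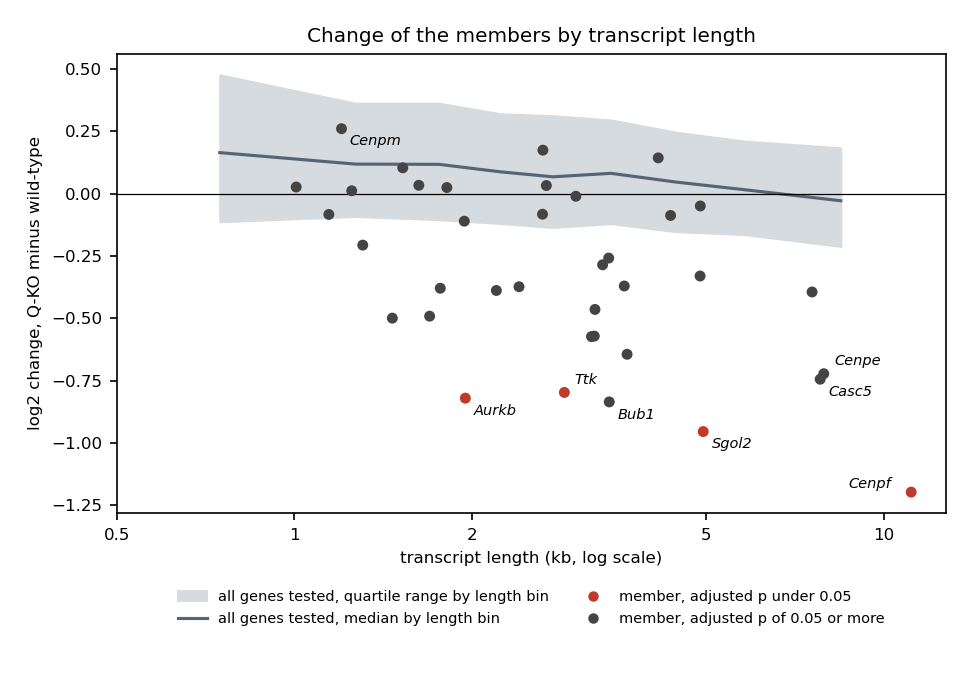
Log2 change (Q-KO minus wild-type) of the 37 genes against transcript length in kilobases (log axis), with the median and quartiles of all genes tested in bins of length. The median of all genes went from 0.16 in the shortest bin to -0.03 in the longest. Sgol2, Aurkb, Ttk and Cenpf, in red, lie below the quartile range, as do many of the others, such as Bub1, Casc5 and Cenpe.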

How the data were processed

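RNA-seq was done on total RNA of 3 wild-type and 3 Q-KO libraries, grouped and numbered by their titles. The authors deposited 1 FPKM value for each gene symbol in each library. The tools named, without role or order, are CASAVA, bcl2fastq 2.16, STAR 2.5 and Cufflinks, with build mm9, per the submitters' processing notes. Annotation, strand setting and read depth are not given in these sources. Because FPKM are relative to the whole library, a few abundant genes can shift all others. With the absolute depth unknown, counting intervals were left out. 1 stray header row was dropped.

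Values were analysed as log2(FPKM + 1) for genes whose mean reached 1 FPKM, with limma 3.58.1 in R 4.3.3 (eBayes with an intensity trend, two-sided, Benjamini-Hochberg over all 11573 genes, threshold 0.05). The log2 change understates that of low genes. The test was checked on simulated data. Transcript length was the longest protein-coding transcript of GENCODE M21 (GRCm38), not the authors' annotation, and was found for 99.3% of tested genes. Chromosomes and promoters are those of RefSeq (GRCm38.p6).

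The members and lists were chosen with earlier results of these data known. Values in every library are given for the members past the threshold and, in each role, for the most abundant member and the one that moved furthest. Other members were named after their values were seen. Alternatives were each library left out, the replicate number as a block, no intensity trend, quantile normalization, scaling by median of ratios, a filter at 5 FPKM, no filter, and a pseudocount of 0.1. Added after the data were seen were removal of a length trend and wild-type replicate 3 as the only wild-type library. 1 gene of the second kinetochore list is counted but not reported here by name.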

Additional observations from a re-analysis of the deposited data

How the results depend on the processing

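With a pseudocount of 0.1, no intensity trend or the replicate block, 4 of the 37 genes fell, as they did with a filter at 5 FPKM (36 genes tested). With no filter 5 fell, beside 94 of the 19581 genes then tested. Deviations of libraries with the same replicate number correlated at -0.03, 0.01 and 0.02. Those of libraries with different numbers ran from -0.13 to 0.17. So few libraries cannot show whether the numbers pair the samples, and the labels do not say. With the replicate block there were 333 calls over all genes, beside 470 without it. With the filter at 5 FPKM there were 266 calls over all genes, among fewer genes tested. The number of the 37 that fell was 8 with median-of-ratios scaling (median log2 change -0.41), 7 with quantile normalization (-0.42) and 9 with the length trend removed. Over all genes, 162, 210 and 212 fell in these fits, in that order, beside 118 in the main fit. Quantile normalization moved the median of all genes from 0.07 to -0.03. The other kinetochore and centromere genes past the threshold went from 2 to 4 with quantile normalization and to 4 with the length trend removed. Leaving out 1 library gave 28 to 566 calls over all genes, 0 to 7 of the 37 and 0 to 3 of the other kinetochore genes. The lowest count over all genes came without Q-KO replicate 2. Against wild-type replicate 3 alone there were 811 calls over all genes, 0 of the 37, 0 of the other kinetochore genes, a median of -0.25 and 31 of the 37 without overlap, 23 lower and 8 higher. A lone library has no range of its own, and 27% of all genes were lower and 40.8% higher without overlap in that comparison. The cause of these differences between settings was not tested.

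No gene that passed the threshold changed direction under any setting above. Log2 changes near 0 turned sign. With median-of-ratios scaling these were Cenph (-0.074), Cenpt (-0.06), Pmf1 (-0.059), Zwint (-0.053) and Cdca8 (-0.052). With quantile normalization they were Cenph (-0.038), Cenpt (-0.044), Pmf1 (-0.025), Zwint (-0.026) and Cdca8 (-0.003). With the length trend removed they were Cenph (-0.054), Cenpt (-0.017), Pmf1 (-0.055) and Cdca8 (-0.013). Against wild-type replicate 3 alone they were Cenph (-0.2), Cenpl (0.108), Cenpp (0.13), Cenpt (-0.181) and Zwint (-0.058). With 1 library left out the ranges were -0.079 to 0.14 for Cdca8, -0.1 to 0.119 for Cenph, -0.128 to 0.03 for Cenpl, -0.006 to 0.437 for Cenpm, -0.189 to 0.026 for Cenpp, -0.212 to 0.046 for Cenpq, -0.103 to 0.128 for Cenpt, -0.054 to 0.259 for Cenpw, -0.077 to 0.11 for Mis12, -0.114 to 0.178 for Pmf1 and -0.055 to 0.337 for Spc25. FPKM give no counts, so the counting error behind low values is unknown.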
